A study of Mus musculus with 9 samples.

Results

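The canonical histone genes are the genes whose symbols begin with H1f, H2ac, H2bc, H3c or H4c followed by a number, and they encode the linker histone H1 and the core histones H2A, H2B, H3 and H4. They were chosen by symbol alone, whatever their expression, and were 64 of the 17596 genes in the table. The H1 class held 9 genes, H2A 17, H2B 15, H3 11 and H4 12. In at least 5 of them the symbol covers a gene that is not tied to DNA replication, namely the replacement linker histones H1f0 and H1f10, the testis genes H1f6 and H2ac1 and the oocyte gene H1f8.

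Core histones form the protein octamer around which DNA is wound, and linker histone binds the DNA that enters and leaves it. Most canonical genes are transcribed in S phase, when new DNA needs new nucleosomes. Their transcripts carry no introns and typically end in a stem-loop that is bound by the stem-loop binding protein Slbp, in place of a poly(A) tail. Resting B cells do not divide, whereas LPS with IL-4 drives them into the cell cycle and towards antibody secretion and class switching.

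RNA was sequenced from mouse splenic B cells, freshly isolated (day 0) or cultured for 3 days with LPS (10 µg/ml) and IL-4 (50 ng/ml). The control mice carried Mb1Cre, which drives Cre recombinase in the B cell lineage and is labelled wild type, and the other mice carried Mb1Cre with 2 floxed alleles of Mct1 (Mct1f/fMb1Cre, labelled cKO). Mct1, listed as Slc16a1, encodes a lactate and pyruvate transporter, and Cre removes its exon 1 to intron 3. The mice were 6 to 8 weeks old, and there were 2 Mb1Cre and 2 Mct1f/fMb1Cre libraries on day 0 and 2 and 3 on day 3, with Mb1Cre in every library. The labels do not say whether the libraries of a group came from separate mice, so p values measure only the spread between these libraries.

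Values were FPKM, fragments scaled to transcript length in kilobases and to the mapped fragments of the library, which allow levels to be compared between genes. They hold no read counts, so the depth and the counting error behind each value are unknown. Slc16a1 had 22.58 and 22.95 FPKM in the day 3 controls and 10.82, 9.81 and 9.50 in the Mct1-deficient libraries, and on day 0 all 4 libraries had between 3.71 and 4.33. All genes summed to 477079 to 491459 FPKM on day 0 and to 547355 to 563586 on day 3. The Y-linked gene Ddx3y had 14.69 to 16.91 FPKM in the 5 day 3 libraries and 31.13 in Mct1-deficient day 0 library 1, but 0.02 to 0.24 in the other day 0 libraries, so in the controls the sex of the mice and the day of culture cannot be told apart. The B cell markers Cd79a and Cd79b, which encode the signalling chains of the B cell receptor, had 1573.17 to 1714.22 and 1059.06 to 1298.90 FPKM on day 0 and 501.57 to 575.06 and 613.37 to 641.79 on day 3, and Pax5, a B lineage transcription factor, had 149.60 to 167.01 and 84.61 to 98.69, so all 3 were far above 0 in every library. Most markers of other cells fell with culture. The 8 myeloid markers, all of which fell in both genotypes, summed to 1029 to 1862 FPKM on day 0 and to 15.1 to 25.4 on day 3. The 6 erythroid markers summed to 125 to 231 and to 4.34 to 7.95, with Hbb-bs at 0 in every day 3 library. Hbb-bt made up most of that day 3 sum and overlapped between the days, with 7.30 to 19.60 FPKM on day 0 and 4.31 to 7.69 on day 3. The 3 NK cell markers summed to 25.8 to 31.7 and to 1.64 to 1.97. Of 5 tested T cell markers 4 fell, while Thy1, which activated lymphocytes can also carry, rose from 6.64 to 10.86 FPKM to 72.28 to 112.66. In bulk libraries, fewer cells of a type and less RNA per cell cannot be told apart, and the part of these cells in the activation results was not tested.

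The stem-loop is the sequence that sets these transcripts apart, and it was searched in the transcript models of the GENCODE vM21 annotation (GRCm38) by the known histone stem-loop pattern, 16 bases on the sense strand with 2 arms of 6 bases that pair around a loop of 4 bases, the outer pairs being G with C. It was found in 42 of the 64 genes and in 27 other protein-coding genes, 69 of 21901 or 0.315% in all. Among the members with a match were 4 of the H1 genes, 10 of H2A, 9 of H2B, 8 of H3 and 11 of H4. For the 22 members without a match, this says only that the pattern is not in the model. All forms that were found are shown with the paired stem in capitals and the loop in lower case.
23 genes, among them H1f2, H2ac24, H2ac18, H2ac8, H2bc11 and H3c1: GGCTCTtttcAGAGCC
6 genes, among them H3c3 and H2bc12: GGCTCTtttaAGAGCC
6 H4 genes, among them H4c3 and H4c4: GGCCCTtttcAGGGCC
2 H4 genes, H4c9 and H4c14: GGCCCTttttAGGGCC
2 H4 genes, H4c2 and H4c11: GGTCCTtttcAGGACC
1 H4 gene, H4c1: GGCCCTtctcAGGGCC
1 H3 gene, H3c8: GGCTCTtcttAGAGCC
1 H2A gene, H2ac20: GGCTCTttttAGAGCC
The first stem was shared by every H1, H2A, H2B and H3 gene with a match, and the H4 genes carried other stems. In H2ac24 the model ends 3 bases after the stem-loop, in H2ac23 31 bases and in H2ac18 35 bases after it, whereas in H1f2 it runs on for 840 bases and in H4c9 for 330. No match was present in the models of H1f0, H1f10, H2bc4 and H2bc21.

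Most members lay in clusters, 52 on chromosome 13 (21715711 to 23934913) and 9 on chromosome 3 (96219885 to 96270192), by the RefSeq annotation of GRCm38.p6. H1f0 was alone on chromosome 15 (79028212 to 79030504), and the remaining 2 genes were on chromosome 6. Promoters, taken as 250 bases before to 50 after the start, were available for 59 members from RefSeq (GRCm38.p6). The 4 motifs were searched on both strands, and overlapping matches each counted. The TATA box (TATAAA) was in 55.9% of members and in 13.6% of all 32817 promoters, the CCAAT box (CCAAT) in 83.1% and 37.4%, and the octamer (ATTTGCAT), which the Oct factors bind, in 20.3% and 1.74%. Every matched H2A, H2B and H3 promoter held a CCAAT box, but only 3 of 11 H4 promoters did. The octamer was in 6 of 13 H2B and 6 of 17 H2A promoters and in no H1, H3 or H4 promoter. The H1 box (AAACACA) was in 5 of 9 H1 promoters and in 7.19% of all. The promoters of H2ac24 and H1f0, the members with the highest level and the largest rise on activation in controls, and of H2ac8, which differed between genotypes, are shown with these motifs in capitals.
H2ac24 (chr13:21833426-21833725, minus strand): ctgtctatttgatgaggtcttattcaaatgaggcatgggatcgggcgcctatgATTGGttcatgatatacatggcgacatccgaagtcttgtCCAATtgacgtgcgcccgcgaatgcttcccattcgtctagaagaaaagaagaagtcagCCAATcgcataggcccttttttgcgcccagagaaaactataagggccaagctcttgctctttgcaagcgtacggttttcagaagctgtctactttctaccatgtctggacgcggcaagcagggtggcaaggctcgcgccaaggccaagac
H1f0 (chr15:79027962-79028261, plus strand): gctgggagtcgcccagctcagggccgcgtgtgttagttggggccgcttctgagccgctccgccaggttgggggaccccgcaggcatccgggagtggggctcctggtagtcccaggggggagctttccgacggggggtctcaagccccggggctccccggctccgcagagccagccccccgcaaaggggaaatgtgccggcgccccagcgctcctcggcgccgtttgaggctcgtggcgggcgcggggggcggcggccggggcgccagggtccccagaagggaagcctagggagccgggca
H2ac8 (chr13:23571171-23571470, minus strand): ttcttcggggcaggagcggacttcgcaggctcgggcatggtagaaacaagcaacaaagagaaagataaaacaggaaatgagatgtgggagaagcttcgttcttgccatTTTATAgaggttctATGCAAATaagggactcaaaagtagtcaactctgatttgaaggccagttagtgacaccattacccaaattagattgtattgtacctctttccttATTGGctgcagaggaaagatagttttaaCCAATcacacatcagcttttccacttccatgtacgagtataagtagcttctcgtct
The H2ac24 promoter held 3 CCAAT boxes and, by these exact strings and in this window, none of the other motifs. H1f0 held none of the 4. H2ac8 held 2 CCAAT boxes, an octamer and a TATA box, and the octamer and the TATA box lay nearer to the start of H2bc8, which is 178 bases away on the opposite strand.

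Few of the genes had high values. Whether the RNA was selected by poly(A) tail is not given in the sources used here, so a low level of a transcript and its poor capture cannot be told apart, and the order of the members by FPKM carries the same limit. Every member was above 0 FPKM in at least 1 library and 22 were in all 9, but the median of their mean levels was 0.571 FPKM, and only 7 had a mean of at least 10. On day 0 the number above 0 was 39 and 45 in the control and 43 and 44 in the Mct1-deficient libraries, and on day 3 it was 49 and 47 against 50, 52 and 51. The share of members detected was therefore 60.9% to 70.3% on day 0 and 73.4% to 81.25% on day 3, while that of all genes was 89.1% to 90.4% and 84.5% to 85.3%. At 1 FPKM or more there were 17 and 17 against 15 and 16 members on day 0, and 20 and 17 against 23, 23 and 23 on day 3. More members were thus detected in every day 3 library than in any day 0 library above 0 FPKM, and at 1 FPKM the day 3 counts of the Mct1-deficient libraries were above those of the controls; these counts have no test. Because of the low levels, 17 members with a mean of at least 1 FPKM were tested and 47 were not. Just inside this limit were H2bc11 (mean 1.19 FPKM) and H3c1 (1.25), and just outside it H3c8 (0.969) and H1f10 (0.941).

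**Figure D1:**
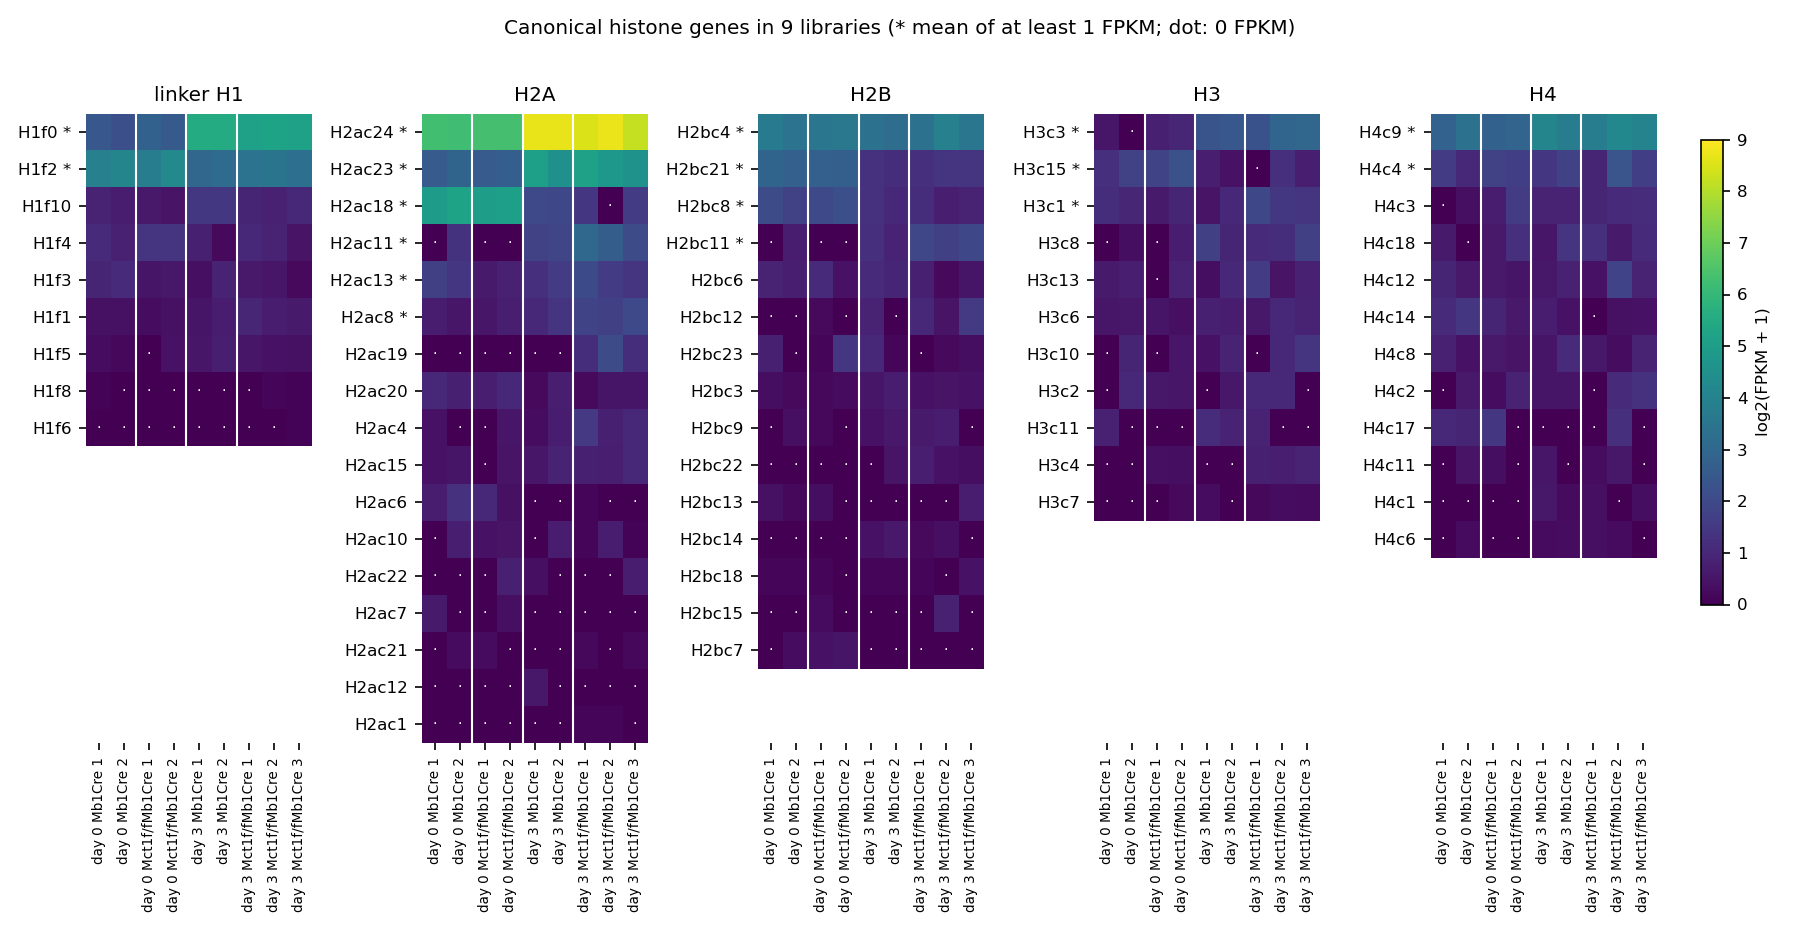
The 64 canonical histone genes (rows, by class and falling mean) in the 9 libraries (columns), coloured by log2(FPKM + 1), with a dot at 0 FPKM and a star on the 17 tested genes. H2ac24 is the brightest row, and most rows stay near 0 in all 9 libraries.

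The summed level of the 64 genes was higher in every day 3 library than in any day 0 library, and H2ac24 carried most of that rise. The sum was 180.28 and 189.40 FPKM in the controls and 183.35 and 195.59 in the Mct1-deficient libraries on day 0, and 562.30 and 547.75 against 514.78, 581.83 and 437.59 on day 3. It made up 0.0378% to 0.0398% of each library on day 0 and 0.0799% to 0.104% on day 3. H2ac24 took 39.4% to 44.3% of the sum on day 0 and 67.6% to 75.0% on day 3. Without H2ac24 the sums were 102 to 115 FPKM and 137 to 158 FPKM. The classes moved differently. The H1 sum was 21.5 to 25.9 FPKM on day 0 and 45.7 to 57.5 on day 3, through H1f0, and the H3 sum 4.93 to 8.67 and 10.2 to 15.5. The H4 sum was 12.6 to 15.2 and 17.7 to 29.6, also without overlap between the days. The H2B sum was 20.1 to 24.2 and 14.5 to 21.8, and the H2A sum without H2ac24 39.7 to 50.2 and 33.6 to 53.5, so both overlapped between days. Sums over chosen genes were given no test.

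**Figure D2:**
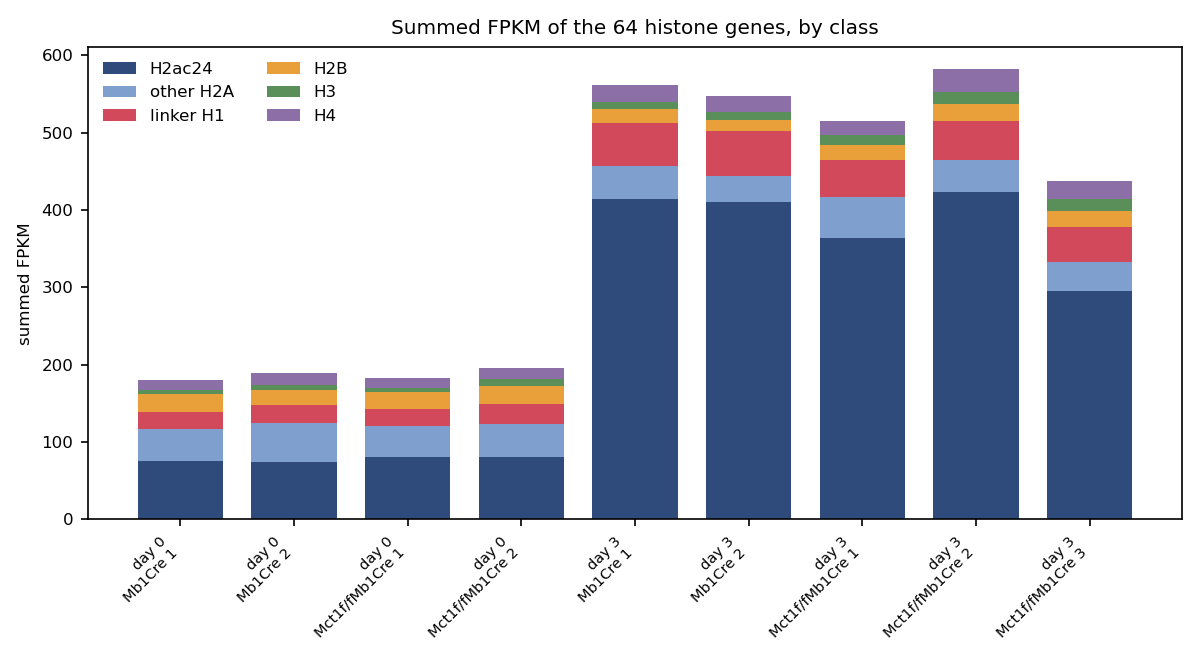
Summed FPKM of the 64 histone genes in each library (bars), divided into H2ac24, the other H2A genes, linker H1, H2B, H3 and H4. The 4 day 0 bars reach 180 to 196 FPKM and the 5 day 3 bars 438 to 582 FPKM, and H2ac24 makes up the larger part of each day 3 bar.

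Activation was examined first, as day 3 against day 0 within each genotype, on log2(FPKM + 1) with limma and Benjamini-Hochberg adjustment over 10823 genes. Calls needed an adjusted p below 0.05 together with a change of more than 0.5 on the log2 scale. In Mb1Cre cells 13 of the 17 tested members were called, where 57.8% of all tested genes were, and in Mct1-deficient cells 15 of 17, where 56.5% were. Of these, 8 rose and 5 fell in the controls, beside 24.8% and 33% of all tested genes, and 10 rose and 5 fell in Mct1-deficient cells, beside 23.4% and 33.2%. The filter used the mean over all 9 libraries. H3c3, H2ac8, H2ac11 and H2bc11 had group means under 1 FPKM on day 0 in both genotypes, so their day 3 values helped them to pass. H3c15 had group means under 1 FPKM on day 3 and passed through its day 0 values. The counts of rises and falls are therefore partly set by the filter. The median log2 change of the 17 was 0.29 and 0.91, and that of all tested genes -0.12 and -0.14. Scaling the libraries to equal totals moved the median of all genes to -0.31 and -0.30, and quantile normalization to 0.01 and 0.02, and under each of these the 5 falling members kept their sign. With quantile normalization 3 of the 5 were still called in the controls, beside 27.6% of all genes called lower, while H2bc8 was at -0.33 (limma adjusted p = 0.0875) and H3c15 at -0.46 (adjusted p = 0.3). Under median-of-ratios scaling 3425 genes rose and 2761 fell in the controls, against 2687 and 3571 as deposited, and the split of members was again 8 and 5. With Mct1-deficient day 0 library 2 left out, so that all Mct1-deficient libraries had a high Ddx3y, 15 of 19 tested members were called in Mct1-deficient cells, 11 higher and 4 lower, beside 57.2% of all genes, 24.1% higher and 33.1% lower.

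Among the linker histones, the replacement form H1f0, known from cells that leave the cell cycle, had the largest rise of any tested member in the controls. It had 4.44 and 3.63 FPKM in the controls and 5.92 and 4.91 in the Mct1-deficient libraries on day 0, and 45.28 and 45.52 against 34.40, 36.40 and 34.28 on day 3. All day 3 values were more than 5 times any day 0 value, with a log2 change of 3.21 (SE 0.087, limma adjusted p = 5.28e-11) in the controls and 2.49 (SE 0.080, adjusted p = 1.59e-10) in Mct1-deficient cells. H1f2, a replication-dependent H1, went the other way. Its values were 14.04 and 16.05 against 12.79 and 17.80 FPKM on day 0, and 6.84 and 7.81 against 9.69, 10.02 and 8.88 on day 3, without overlap between the days. It fell by 0.95 in the controls (limma adjusted p = 3.08e-05) and by 0.61 in Mct1-deficient cells (adjusted p = 4.40e-04), and the latter was -0.39 without day 0 library 2, which is under the limit of 0.5. H1f10, the other replacement form, was too low to be tested, with 0.82 and 0.59 against 0.55 and 0.38 FPKM on day 0 and 1.73 and 1.74 against 0.89, 0.79 and 0.98 on day 3. H1f4 and H1f3 reached 1.65 and 1.10 FPKM at most.

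The H2A class held both the highest member and the largest fall. H2ac24 had 76.05 and 74.57 FPKM in the controls and 81.29 and 80.34 in the Mct1-deficient libraries on day 0, and 414.44 and 410.73 against 363.88, 423.59 and 295.63 on day 3. It ranked 241st of all genes by its mean of 247 FPKM, and no other member had a mean above 23.9. Its log2 change was 2.44 (SE 0.119, limma adjusted p = 5.24e-09) in the controls and 2.13 (SE 0.109, adjusted p = 6.93e-09) in Mct1-deficient cells. H2ac23, its neighbour in the cluster, had 4.96 and 6.52 against 4.98 and 5.51 FPKM on day 0, and 32.62 and 21.67 against 34.56, 26.51 and 22.93 on day 3. It rose by 2.04 and 2.20 in the controls and Mct1-deficient cells. H2ac18, on chromosome 3, had 29.83 and 36.51 against 31.41 and 32.49 FPKM on day 0 but 2.97 and 2.89 against 1.69, 0 and 2.02 on day 3. The days were far apart in both genotypes, and it fell by 3.11 (SE 0.391, limma adjusted p = 1.74e-05) in the controls and by 4.03 (SE 0.357, adjusted p = 8.14e-07) in Mct1-deficient cells. H2ac11 had 0 and 1.5 against 0 and 0 FPKM on day 0 and 2.39 and 2.67 against 7.20, 5.29 and 3.18 on day 3. It rose by 1.16 in the controls (adjusted p = 0.0125), but was at 0.50 without day 0 control library 1 (adjusted p = 0.131) and at 1.10 without day 3 control library 2 (adjusted p = 0.0569), and was called in Mct1-deficient cells, where it was listed at 0 in both day 0 libraries.

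Several H2A genes are so alike that a read cannot place itself. Of the 50-base stretches of each transcript, a median of 51.9% per member were also found in another gene, 32 members shared at least 50% of theirs, and 5 shared none. H2ac24 and H2ac23 had 93.1% and 93.5% of their stretches in each other, and H2ac19 had 100% in H2ac18. H2ac18 itself had 0% unique stretches, with 89.2% in H2ac19 and 100% in Gm20633. Gm20633 is not a member and was not included in the sum below. H1f0, H1f2 and H2bc21 were easier to place, with 94.3%, 91.5% and 100% unique stretches. How the authors assigned shared reads is not given in the sources used here. H2ac19 was listed at 0 FPKM in the 4 day 0 libraries and in both day 3 controls, but at 1.25, 3.24 and 1.25 in the Mct1-deficient libraries. The sum of H2ac18 and H2ac19 was 2.97 and 2.89 FPKM in the day 3 controls and 2.94, 3.24 and 3.27 in the Mct1-deficient libraries. So the genotypes that seem apart in either gene were nearly level in the sum, whose log2 difference was 0.078 (95% interval -0.10 to 0.25, limma adjusted p = 0.574), and the sum changed on activation by -3.11 in the controls and -2.99 in Mct1-deficient cells. The sum of H2ac23 and H2ac24 rose by 2.43 and 2.15, close to H2ac24 alone.

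**Figure D3:**
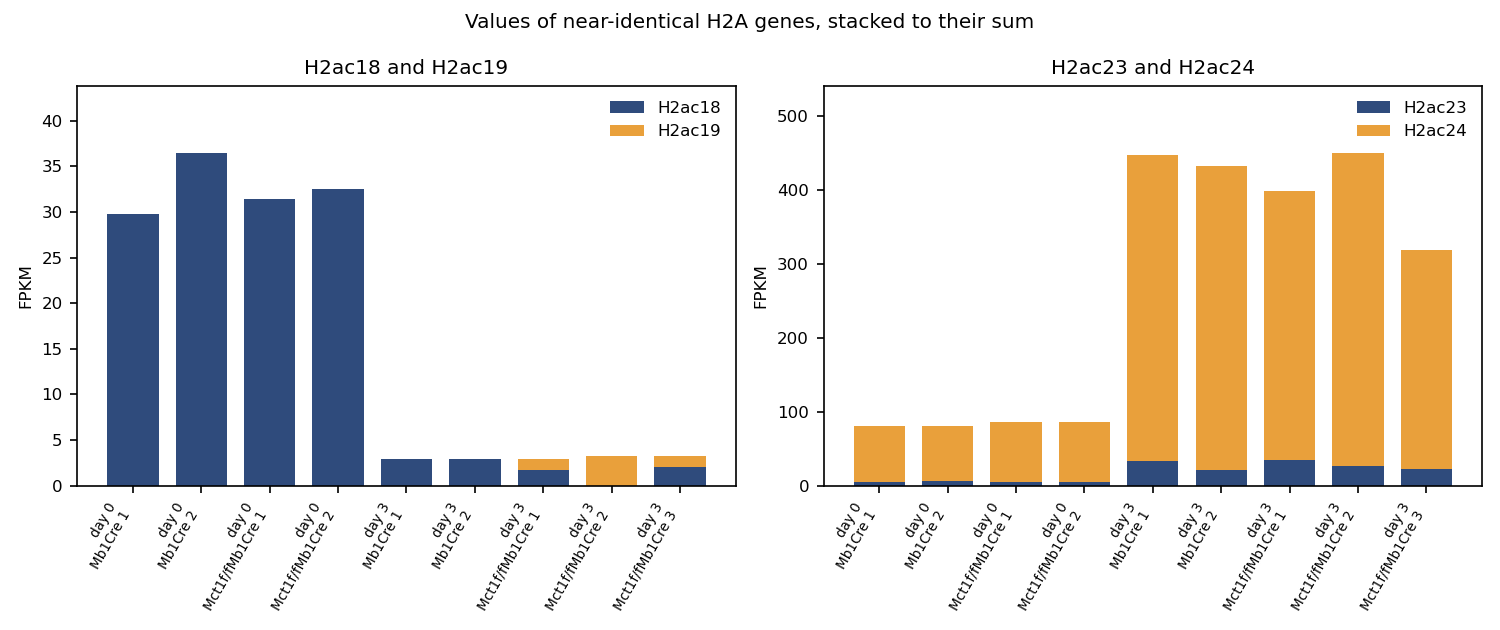
FPKM of H2ac18 with H2ac19 (left) and of H2ac23 with H2ac24 (right) in each library, stacked so that the bar height is the sum. H2ac19 appears in the Mct1-deficient day 3 libraries, where H2ac18 is lower, and the 5 day 3 sums lie between 2.89 and 3.27 FPKM.

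No tested H2B gene rose in the controls other than H2bc11, and the 3 with the highest levels did not move together. H2bc4 had 12.20 and 9.69 against 10.56 and 11.21 FPKM on day 0, and 9.50 and 8.21 against 9.59, 14.03 and 10.58 on day 3, and was called in neither genotype. H2bc21, which lies in the chromosome 3 cluster and whose model is 2620 bases long, had 6.52 and 5.75 against 5.83 and 5.68 FPKM on day 0 and 1.42 and 1.25 against 1.32, 1.61 and 1.54 on day 3. It fell by 1.61 in the controls (SE 0.091, limma adjusted p = 1.84e-08) and by 1.44 in Mct1-deficient cells (SE 0.083, adjusted p = 1.99e-08), with all day 3 values below all day 0 values. The H2bc21 model has no stem-loop match and holds a poly(A) signal in its last 50 bases. Whether this gene is tied to DNA replication was not tested. H2bc8 had 3.21 and 2.38 against 2.94 and 3.62 FPKM on day 0 and 1.42 and 0.99 against 1.25, 0.67 and 0.85 on day 3, and fell by 0.78 and 1.16. Its partner across the shared promoter, H2ac8, rose by 0.58 in the controls and 1.21 in Mct1-deficient cells (limma adjusted p = 0.00243 and 3.79e-06), so these neighbours moved in opposite directions in both genotypes. The rise of H2ac8 in the controls was 0.49 with libraries scaled to equal totals and 0.41 without day 3 control library 2, both under the limit of 0.5. H2bc8 was at -0.33 in the controls with quantile normalization, also within that limit. H2ac11 and H2bc11, which start 247 bases apart, were both called higher on day 3 in both genotypes. H2bc11 had 0 and 0.63 against 0 and 0 FPKM on day 0 and 1.31 and 0.81 against 2.82, 2.24 and 2.87 on day 3, a rise of 0.68 in the controls (adjusted p = 0.00917) that was 0.33 without day 0 control library 1 (adjusted p = 0.0852) and 0.50 without day 3 control library 1 (adjusted p = 0.0866). In all, 8 pairs of H2A and H2B genes faced away from each other with starts 162 to 247 bases apart, and in only these 2 pairs were both genes tested.

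In the H3 class, H3c3 had 0.46 and 0 against 0.72 and 0.94 FPKM on day 0 and 4.04 and 4.50 against 3.84, 6.74 and 6.80 on day 3. It rose by 2.12 (SE 0.227, limma adjusted p = 4.46e-06) in the controls and by 1.86 (SE 0.208, adjusted p = 6.04e-06) in Mct1-deficient cells. H3c15, on chromosome 3, had 1.37 and 2.39 against 2.61 and 3.69 FPKM on day 0 and 0.68 and 0.34 against 0, 1.36 and 0.68 on day 3. It fell by 0.92 (adjusted p = 0.0214) and by 1.38 (adjusted p = 0.00113), with all day 3 values below all day 0 values. In the controls it was at -0.66 without day 0 library 2 (adjusted p = 0.134) and at -0.75 without day 3 library 2 (adjusted p = 0.118). All its day 3 values are multiples of 0.34. The 3 tested members on chromosome 3, H2ac18, H2bc21 and H3c15, thus all fell in both genotypes, beside 33% and 33.2% of all tested genes. Of the 13 tested on chromosome 13, 7 rose and 2 fell in the controls, and 9 rose and 2 fell in Mct1-deficient cells. Of all tested genes 24.8% and 23.4% were called higher. This split was chosen after values were seen, and its chromosome 3 side rests on 3 genes. H4c9 was the highest H4 gene, with 6.16 and 9.24 against 6.01 and 6.63 FPKM on day 0 and 15.91 and 13 against 12.86, 17.54 and 15.29 on day 3. It rose by 0.85 (SE 0.167, limma adjusted p = 6.24e-04) in the controls and by 1.14 (SE 0.152, adjusted p = 2.83e-05) in Mct1-deficient cells. H4c4, with 0.93 to 4.18 FPKM over the 9 libraries, was not called, and H4c3 stayed under the limit for testing with 0 to 2.03 FPKM.

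**Figure D4:**
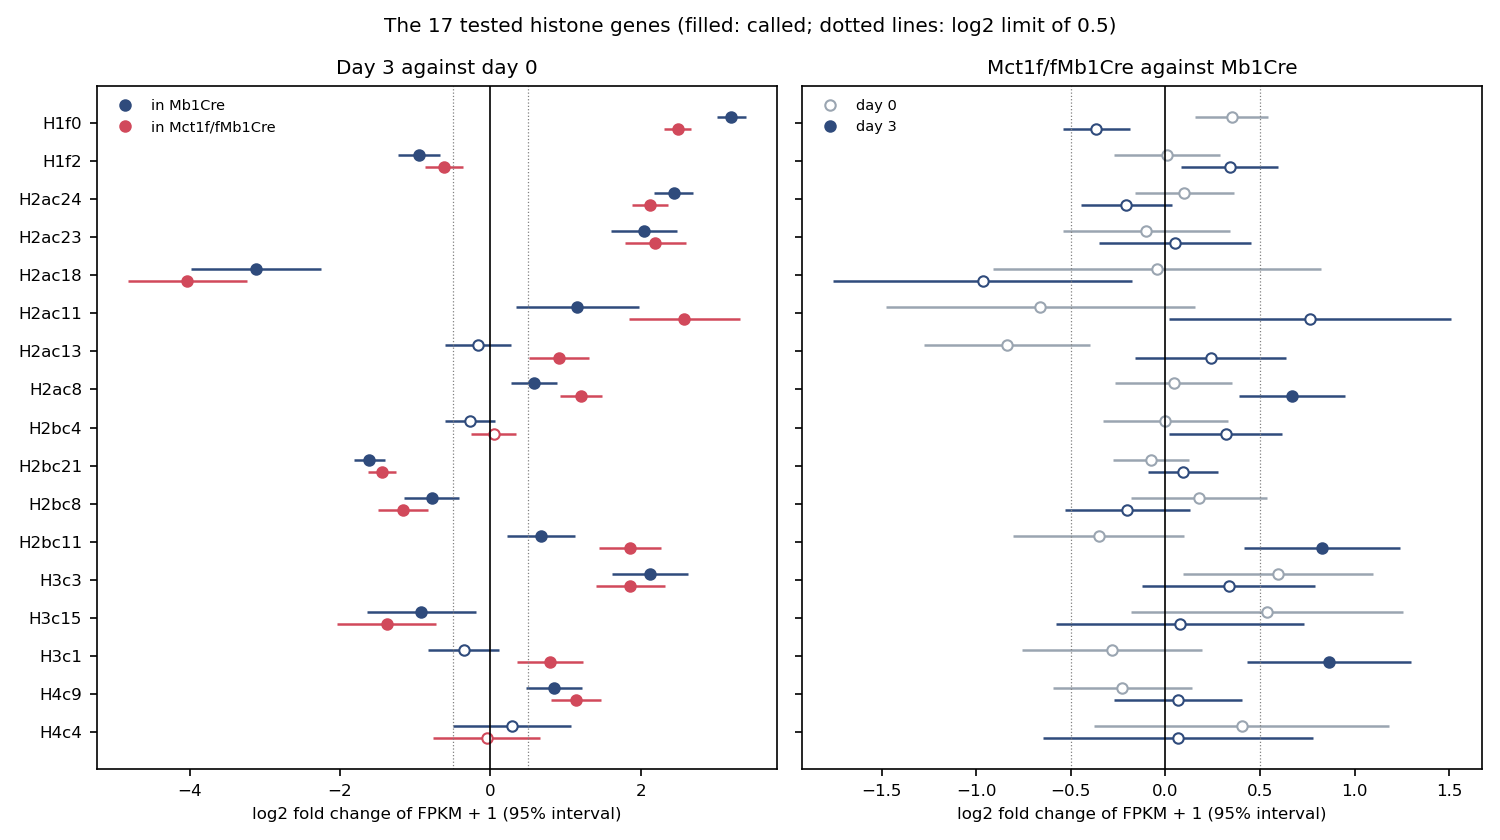
Log2 fold changes of the 17 tested members with 95% intervals from limma, for day 3 against day 0 in each genotype (left) and for Mct1f/fMb1Cre against Mb1Cre on each day (right), filled where called. On the left most members lie away from 0 in both genotypes, and on the right H2ac8, H2bc11 and H3c1 are filled on day 3 and none on day 0.

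Of the 47 members below the limit, 24 reached 1 FPKM in at least 1 library and 23 did not. Beside those already given, they were H2ac4, H2ac6, H2ac15 and H2ac20, H2bc6, H2bc12 and H2bc23, H3c2, H3c6, H3c8, H3c10, H3c11 and H3c13, and H4c2, H4c8, H4c12, H4c14, H4c17 and H4c18. None of these had a value above 2.47 FPKM, which was that of H4c12 in Mct1-deficient day 3 library 2. H2ac6 had 0.63, 1.45, 1.01 and 0.32 FPKM on day 0 but 0.11 at most on day 3, whereas H3c8 had 0.64 at most on day 0 and 0.91 to 2.28 on day 3. In the fit with no filter on low values, which tests all 64, 16 members were called on activation in the controls and 22 in Mct1-deficient cells, beside 39.8% and 38.9% of all genes. In the controls 10 of them rose and 6 fell, beside 16.2% and 23.6% of all genes. In Mct1-deficient cells 15 rose and 7 fell, beside 15% and 23.9%.

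The genotypes were then compared on each day, which asks whether the loss of Mct1 alters these transcripts. On day 3, 3 of the 17 tested members were called, all higher in Mct1-deficient cells, beside 2.42% of all tested genes. Each of the 3 had a mean under 3 FPKM in every group. H2ac8, H2bc11 and H3c1 had means of 2.63, 2.64 and 2.06 FPKM in the Mct1-deficient day 3 libraries and at most 1.29 in any other group. The filter used the mean over all 9 libraries, so these high values helped the 3 genes to pass it. The count and its direction are therefore partly set by the filter. With no filter H2bc11 (limma adjusted p = 0.0683) and H3c1 (0.0754) were not called, while H2ac8 was. H2ac8 had 1.03 and 1.55 FPKM in the controls and 2.62, 2.30 and 2.97 in the Mct1-deficient libraries, a log2 difference of 0.67 (SE 0.127, limma adjusted p = 0.00563). H2bc11, with the values given above, differed by 0.83 (SE 0.187, adjusted p = 0.0137). H3c1 had 0.38 and 0.98 against 2.89, 1.74 and 1.56 FPKM, a difference of 0.86 (SE 0.196, adjusted p = 0.0144). In all 3 genes each Mct1-deficient value was above each control value. Of the 50-base stretches of H2ac8, H2bc11 and H3c1, 43.2%, 59.4% and 49.5% were also found in another gene. The part of shared reads in these differences was not tested. None of the 3 calls held in every alternative. Without day 3 control library 1, H2ac8 was at 0.51 (adjusted p = 0.0821) and H3c1 at 0.60 (adjusted p = 0.161), and without control library 2 H2bc11 was at 0.65 (adjusted p = 0.134). On day 3 the myeloid markers summed to 15.1 and 16.8 FPKM in the controls and to 22.2 to 25.4 in Mct1-deficient cells, with Lyz2 and Adgre1 of the 8 called higher, and among the T cell markers Thy1 was called lower, and their part in these differences was not tested.

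**Figure D5:**
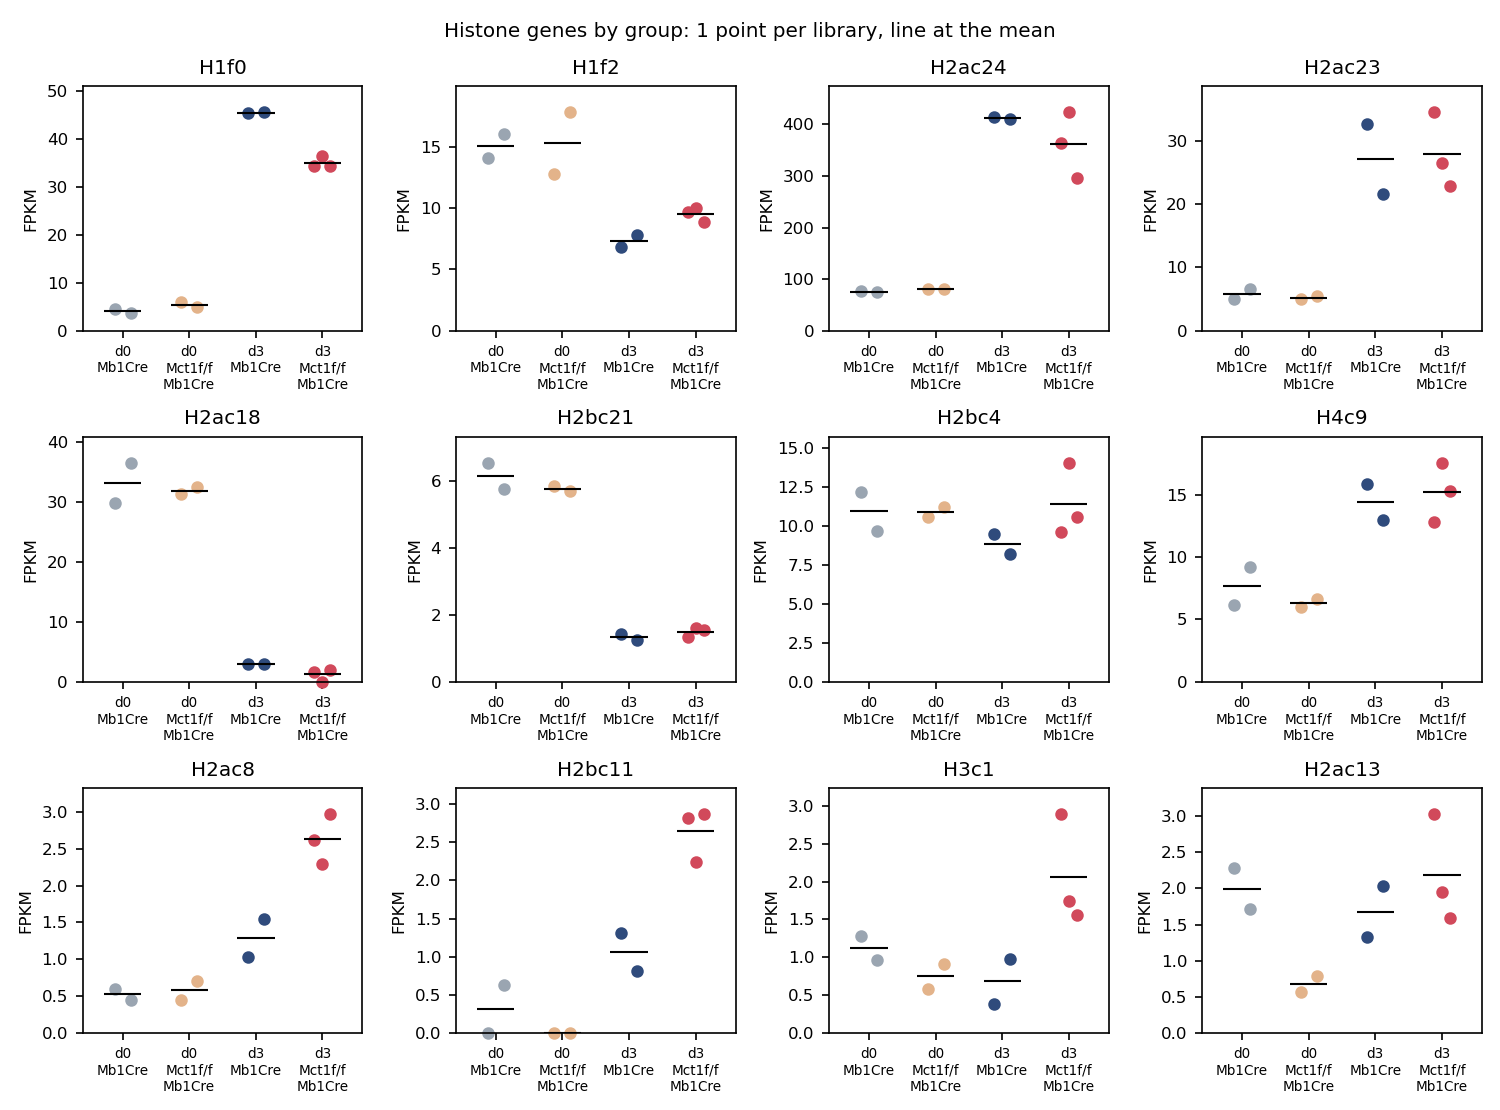
FPKM of 12 histone genes in the 4 groups (points: libraries; lines: means; d0 and d3: day 0 and day 3). H1f0 and H2ac24 lie far higher on day 3 and H2ac18 and H2bc21 far lower, and in H2ac8, H2bc11 and H3c1 the 3 Mct1-deficient day 3 points lie above the 2 controls.

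The members with higher FPKM gave other values. H1f0, at 45.28 and 45.52 FPKM in the controls and 34.28 to 36.40 in Mct1-deficient cells, was 0.37 lower (SE 0.080, 95% interval -0.54 to -0.19, limma adjusted p = 0.0117) and so passed the p but not the limit of 0.5. H2ac24 differed by -0.21 (95% interval -0.45 to 0.03, adjusted p = 0.241), and its 3 Mct1-deficient values lay on both sides of the controls. H1f2 differed by 0.34 (95% interval 0.08 to 0.60, adjusted p = 0.076), H2bc4 by 0.32 (0.02 to 0.62, adjusted p = 0.148) and H2ac11 by 0.77 (0.02 to 1.51, adjusted p = 0.16), and H2ac18 alone by -0.97 (-1.76 to -0.18, adjusted p = 0.0966). Of these, H2ac18 was called without Mct1-deficient day 3 library 3 (-1.26, adjusted p = 0.0493), and H2ac11 without day 0 control library 1 or 2 (adjusted p = 0.0346 and 0.0353). With all 64 members in the fit, 4 were called, beside 1.52% of all genes. H2ac8 was among them, with H3c4, listed at 0 FPKM in both controls and at 0.71, 0.69 and 0.80 in Mct1-deficient cells (adjusted p = 2.33e-04), and H2ac19 (adjusted p = 0.0222), whose sum with H2ac18 is given above. H1f10 was lower by 0.54 (adjusted p = 0.0127), in the same direction as H1f0.

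On day 0, 0 of the 17 tested members were called by limma, beside 0.277% of all tested genes, though 3 had p below 0.05 before adjustment, as had 11.7% of all tested genes. With no filter the count was also 0, beside 0.0568%, with 6 of the 64 at p below 0.05 before adjustment, beside 11.4% of all genes. H2ac13 had 2.28 and 1.71 FPKM in the controls and 0.56 and 0.78 in Mct1-deficient cells, a difference of -0.84 (95% interval -1.28 to -0.40, adjusted p = 0.161). H1f0 differed by 0.35 (0.16 to 0.54, adjusted p = 0.183).

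Whether activation differed between the genotypes was tested by the interaction of genotype and day. Of the 17 members 4 were called, beside 3.23% of all tested genes. H1f0 rose less in Mct1-deficient cells, by 0.72 (SE 0.118, limma adjusted p = 0.00549), being slightly higher in them on day 0 and lower on day 3. H2bc11 (1.18, adjusted p = 0.0257), H3c1 (1.15, adjusted p = 0.0355) and H2ac13 (1.08, adjusted p = 0.0329) rose more. Of their 50-base stretches, 59.4%, 49.5% and 90.1% were also found in another gene, and the part of shared reads was not tested. H3c1 had 1.28 and 0.96 against 0.58 and 0.91 FPKM on day 0. H2ac13 overlapped between the genotypes on day 3, with 1.33 and 2.03 against 3.03, 1.95 and 1.59, and its lower day 0 values in Mct1-deficient cells are given above. H3c1 and H2ac13 each passed the test on activation in Mct1-deficient cells only (0.79 and 0.91). The size for H2bc11 depends on the pseudocount, since both Mct1-deficient day 0 values were 0. H2ac8 (0.63, adjusted p = 0.0651), H2ac11 (1.43, adjusted p = 0.103), H2ac24 (-0.31, adjusted p = 0.265), H2ac18 (-0.92, adjusted p = 0.308) and H1f2 (0.33, adjusted p = 0.261) were not called. H2ac11 was called without day 0 control library 1 (2.09, adjusted p = 0.00865) and H1f2 without Mct1-deficient day 0 library 2 (0.56, adjusted p = 0.0324). H1f0 was the 1 member called with no filter, beside 1.41% of all genes, and it was called without each library in turn. The other 3 were not called without Mct1-deficient day 0 library 1, with adjusted p of 0.0551 for H2bc11, 0.0874 for H2ac13 and 0.097 for H3c1. H2ac13 and H3c1 were also not called without day 0 control library 1 (adjusted p = 0.0824 and 0.0831), day 3 control library 1 (0.133 and 0.136) or day 3 Mct1-deficient library 2 (0.0594 and 0.0576), nor was H2bc11 without Mct1-deficient day 0 library 2 (0.052) or day 3 control library 2 (0.102).

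The other genes of histone supply were examined beside the members. Of 27 genes of S phase and replication, 25 rose in the controls and 25 in Mct1-deficient cells, beside 24.8% and 23.4% of all tested genes. None fell, beside 33% and 33.2%, and the median log2 change was 2.02 in the controls. The largest rises were those of Rrm2, which makes deoxyribonucleotides (3.01), Ccna2 (2.97), Cdc45 (2.91) and Gins2 (2.87). On day 3 the thymidylate synthase Tyms had 32.29 and 30.26 FPKM in the controls and 20.83, 20.67 and 20.60 in Mct1-deficient cells, and fell by 0.57 (limma adjusted p = 1.31e-04). The interaction called Tyms (-0.78) and the replication factor Gins1 (-0.62, adjusted p = 0.00741), and no other gene of the list was called by genotype. Of 30 tested histone chaperones 19 rose and 2 fell in the controls, beside 24.8% and 33% of all tested genes. The largest rises were those of Chaf1a (2.70), Asf1b (2.41), Npm1 (1.98) and Chaf1b (1.95). No chaperone was called by genotype, beside 2.42% of all tested genes on day 3 and 0.277% on day 0. Chaf1a and Chaf1b are subunits of the factor that sets H3 and H4 on new DNA, and Asf1b hands it these histones.

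Of 25 genes of histone 3′ end formation and transcription, 11 rose and 3 fell in the controls, beside 24.8% and 33% of all tested genes. None of the 25 was called by genotype. Slbp had 34.16 and 32.05 FPKM in the day 0 controls and 59.70 and 56.72 on day 3, a rise of 0.80 (SE 0.049, limma adjusted p = 3.51e-08), and Npat, the coactivator of histone gene clusters, rose by 0.83. The largest changes were those of Gapdh (2.66), Ldha (2.35), the uridylyl transferase Tut7 (-1.49) and E2f1 (1.17). Gapdh and Ldha are glycolytic enzymes that were on the list for their reported part in a coactivator of H2B promoters. Of 10 tested core histones outside the canonical symbols, 3 rose and 3 fell in the controls, beside 24.8% and 33% of all tested genes. Most of the 10 were replication-independent variants, but the stem-loop was also found in the models of H2aw, H2ax and H2bu2, under their older symbols. Cenpa, the H3 of centromeres, rose by 1.87 and H2az1 by 1.43, while H3f3a, which encodes H3.3, fell by 1.41 and H2aw by 1.87. H2aw had 6.76 and 5.30 FPKM in the day 3 controls and 8.38, 10.22 and 8.64 in Mct1-deficient cells, a difference of 0.52 (SE 0.096, limma adjusted p = 0.00455), which was 0.37 without control library 2 and 0.44 without Mct1-deficient library 2, and its interaction term was 0.64 (adjusted p = 0.0210). That term was not called with no filter (adjusted p = 0.0884), with a pseudocount of 5 (0.45), or without day 0 control library 1 (adjusted p = 0.0534), Mct1-deficient day 0 library 1 (0.0592) or day 3 control library 2 (0.0703).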

How the data were processed

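RNA was sequenced by the authors from B cells of 4 groups (9 libraries). Per the labels the reads were processed with Bowtie2 on GRCm38 (mm10); the tool that made the values, its annotation and the selection of RNA (poly(A) or rRNA depletion) are not given in the sources used here. The authors deposited FPKM values rounded to 2 decimals, normalized to gene length and mapped fragments. No further scaling was applied.

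Tests used log2(FPKM + 1) of genes whose mean over all libraries reached 1 FPKM, in limma 3.58.1 (R 4.3.3), with 1 mean per group, a shared spread, a trend and Benjamini-Hochberg adjustment, and fold changes of low genes are understated on this scale. The code was tested on simulated data. Sequences were read with Python 3.11.15 from GENCODE vM21 transcripts and RefSeq promoters of GRCm38.p6, and figures drawn with matplotlib 3.10.9.

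Members and lists were chosen with earlier results of these data known. Named were the 3 highest members of each class, members called in a genotype comparison, the 3 largest called changes in each direction on activation, members that reached 1 FPKM below the filter, H1f0 and H1f10, up to 4 genes per other list and those called by genotype. H2ac18 with H2ac19, the H2A and H2B neighbours, Slbp, Npat, H3c4, Ddx3y and the split by chromosome were chosen after values were seen. Alternatives were other pseudocounts, filters, scalings, limits, a replicate block and each library left out.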

Additional observations from a re-analysis of the deposited data

Results flagged for a closer look

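The change on activation differed between the genotypes in 4 members by the interaction term. H1f0 rose less in Mct1-deficient cells (-0.72 on the log2 scale), and H2bc11 (1.18) rose more. H3c1 (1.15) and H2ac13 (1.08) rose in Mct1-deficient cells but not in the controls. H2ac13 had 2.28 and 1.71 FPKM in the day 0 controls against 0.56 and 0.78 in Mct1-deficient cells, a difference that was not called. Its day 3 values overlapped between the genotypes. The 5 H1f0 values of day 3 lie in separate ranges by genotype, 45.28 and 45.52 against 34.28 to 36.40 FPKM, whereas the other 3 genes had no value above 3.03 FPKM in any library. The day 0 controls and the day 3 controls also differ in the Y-linked gene Ddx3y, and the part of this in the interaction was not tested. Dixon's rule for a sample far from its group was not used, because no group held more than 3 libraries.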

How the results depend on the processing

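Of the 28 calls of members on activation, 16 held in every alternative that could test them, and none of the 4 interaction calls or the 3 day 3 genotype calls did. With the log2 limit of 1 left aside, 18 activation calls and the interaction of H1f0 (-0.72, under that limit) held. No called value changed sign. The genotype count on day 3 was 0 with a pseudocount of 5, with a log2 limit of 1 and with a mean of at least 5 FPKM, which tests 7 members, beside 1.11%, 0.499% and 2.11% of all genes. The interaction count was 1 with a pseudocount of 5, with no filter and with a mean of at least 5 FPKM, beside 1.44%, 1.41% and 2.93%. Activation in the controls gave 8 calls with a pseudocount of 5, 7 with a limit of 1 and 6 with a mean of at least 5 FPKM, beside 44.5%, 29.5% and 57.1%, and that filter also gave 6 in Mct1-deficient cells, beside 55.5%. Without a single library, 1 to 4 members were called on day 3 (1 without control library 1), 1 to 4 by the interaction (1 without Mct1-deficient day 0 library 1, and 2 without day 3 control library 1 or day 3 Mct1-deficient library 2), 0 on day 0, 11 to 15 on activation in the controls and 14 to 16 in Mct1-deficient cells. A group left with 1 library was assumed to vary like the others. The fall of H1f2 in Mct1-deficient cells was -0.41 with median-of-ratios scaling and -0.43 with quantile normalization. The median library had 17 members at 1 FPKM or more. Summing H2ac18 with H2ac19, chosen after seeing the data, turned the day 3 difference of H2ac18 to 0.078 and its interaction to 0.12, by the construction of the sum.

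With the replicate number as a block, 2 members were called on day 3, beside 2.42% of all tested genes. The interaction called 2, beside 2.53%, and day 0 gave 0, beside 0.249%. Activation gave 13 and 15, beside 57.8% and 56.4%. H2bc11 was then at 0.78 on day 3 (limma adjusted p = 0.0718), and the interaction terms of H3c1, H2bc11 and H2aw had adjusted p of 0.0602, 0.0896 and 0.0568. The deviations of same-numbered libraries of different groups had correlations from -0.12 to 0.087 over 12 pairs. In a group of 2 libraries the deviations mirror each other, so these values cannot show whether such libraries shared a mouse or batch. The labels name no shared mouse.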
